A study of Mus musculus with 11 samples.

Results

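The genes described here are 42 genes of DNA replication and mitosis, 24 that act before or during S phase and 18 that act in mitosis. They were chosen by gene symbol, and all 42 were found among the 54513 genes of the count table. RNA was sequenced from mouse colonic epithelial cells in 4 groups, after a step on the density medium Percoll to remove lymphocytes. Markers of T cells and intraepithelial lymphocytes were still counted in every library, as given below. DSS DKO cells (n = 3) came from double-knockout mice, without the microRNA clusters miR-181a1-b1 and miR-181a2-b2, that received 2% dextran sulfate sodium (DSS), a polymer that injures the colonic epithelium, for 7 days before 2 days of recovery. DSS WT cells (n = 3) came from wild-type mice given the same course. Baseline DKO cells (n = 3) and baseline WT cells (n = 2) came from double-knockout and wild-type mice without DSS. The labels give no cell type specific driver for the deletion, and the cells were a mixed epithelial fraction, not a sorted crypt population. In such bulk samples fewer cycling cells and less of a transcript per cycling cell cannot be told apart.

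A dividing cell first licenses its replication origins by loading the MCM helicase, then fires them in S phase with the help of the CMG complex (Cdc45, MCM and GINS) and DNA polymerases. It later enters mitosis under cyclin B with Cdk1 and the Aurora and Polo-like kinases. Genes of the earlier step are classic targets of E2F transcription factors, whereas many mitotic genes carry a CHR element with a nearby CCAAT box, which DREAM and MMB complexes and NF-Y use. In the colon, division takes place in the lower crypt, where stem and transit-amplifying cells replace the cells shed at the surface, and it is known to increase during repair after injury.

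The promoters below are shown because the comparison of S-phase with mitotic genes runs through the results, and the promoters of the 2 classes differ in the motifs they hold. Each is 250 bases before to 50 bases after the start site, 5′ to 3′ on the gene's strand, from RefSeq on GRCm38.p6. Of each class, the 3 members with the lowest adjusted p between DSS DKO and DSS WT are printed, and capitals mark matches to the searched motifs on either strand. The S-phase genes are Pola1 (chrX:93632106-93632405, minus strand), Mcm6 (chr1:128359656-128359955, minus strand) and Mcm10 (chr2:5012742-5013041, minus strand).
Pola1: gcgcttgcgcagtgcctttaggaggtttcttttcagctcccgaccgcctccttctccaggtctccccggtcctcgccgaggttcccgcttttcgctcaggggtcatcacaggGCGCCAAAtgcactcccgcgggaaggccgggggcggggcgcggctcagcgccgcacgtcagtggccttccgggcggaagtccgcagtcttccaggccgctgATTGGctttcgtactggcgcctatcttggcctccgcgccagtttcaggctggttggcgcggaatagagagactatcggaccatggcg
Mcm6: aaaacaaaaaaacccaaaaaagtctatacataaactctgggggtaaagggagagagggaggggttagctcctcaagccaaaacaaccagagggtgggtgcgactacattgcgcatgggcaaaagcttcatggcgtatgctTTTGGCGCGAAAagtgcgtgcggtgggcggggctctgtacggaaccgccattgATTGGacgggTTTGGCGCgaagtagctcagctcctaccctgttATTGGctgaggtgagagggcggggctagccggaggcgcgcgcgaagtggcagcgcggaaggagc
Mcm10: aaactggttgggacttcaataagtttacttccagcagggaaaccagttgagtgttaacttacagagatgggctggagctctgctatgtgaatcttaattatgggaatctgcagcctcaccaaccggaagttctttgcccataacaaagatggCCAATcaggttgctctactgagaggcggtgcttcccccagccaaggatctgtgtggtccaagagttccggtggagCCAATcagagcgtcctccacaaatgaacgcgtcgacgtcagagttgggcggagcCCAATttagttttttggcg
The mitotic genes are Top2a (chr11:99024140-99024439, minus strand), Bub1 (chr2:127831810-127832109, minus strand) and Kif11 (chr19:37376132-37376431, plus strand).
Top2a: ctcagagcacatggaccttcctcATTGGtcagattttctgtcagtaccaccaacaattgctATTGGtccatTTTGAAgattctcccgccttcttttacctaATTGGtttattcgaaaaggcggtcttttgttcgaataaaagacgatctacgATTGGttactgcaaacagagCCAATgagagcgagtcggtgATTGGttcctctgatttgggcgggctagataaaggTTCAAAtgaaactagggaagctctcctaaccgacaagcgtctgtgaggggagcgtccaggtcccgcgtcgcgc
Bub1: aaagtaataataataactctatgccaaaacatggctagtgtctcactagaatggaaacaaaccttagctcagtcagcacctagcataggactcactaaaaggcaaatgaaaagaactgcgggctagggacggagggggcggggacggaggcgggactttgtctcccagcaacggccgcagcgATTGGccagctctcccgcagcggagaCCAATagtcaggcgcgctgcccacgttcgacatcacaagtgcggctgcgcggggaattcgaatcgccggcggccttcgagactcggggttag
Kif11: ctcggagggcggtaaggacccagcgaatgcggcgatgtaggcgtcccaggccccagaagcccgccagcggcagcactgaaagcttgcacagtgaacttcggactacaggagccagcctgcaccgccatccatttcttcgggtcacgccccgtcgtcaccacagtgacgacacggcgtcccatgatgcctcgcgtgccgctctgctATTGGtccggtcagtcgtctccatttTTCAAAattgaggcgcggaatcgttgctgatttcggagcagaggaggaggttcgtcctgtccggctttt

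The motifs searched were an E2F motif, written TTTCCCGC, TTTGGCGC, TTTCGCGC or TTTGCCGC, a CHR motif, written TTTGAA, and a CCAAT box, written CCAAT, each on both strands. A promoter was held for 33 of the 42 members, 18 S-phase and 15 mitotic. An E2F motif stood in 9 of 18 S-phase promoters (50%) and in 1 of 15 mitotic ones (6.67%, Cdk1), beside 2.98% of the 20963 genes of the table with a promoter. A CHR motif stood in 4 of 18 S-phase promoters (22.2%) and in 11 of 15 mitotic ones (73.3%), beside 19.2% of those genes. The CCAAT box was found in 13 of 18 S-phase promoters (72.2%), 14 of 15 mitotic promoters (93.3%) and 41.8% of all those genes. In the printed sequences, Mcm6 holds 3 E2F matches, of which 2 overlap each other, and Pola1 holds 1, while Top2a holds 2 CHR matches, Kif11 1 and Bub1 none. Mcm10, an S-phase gene, holds 3 CCAAT boxes and no E2F match in this window. Among all 99 matches in members' promoters, 1 pair of different motifs overlapped. These matches describe letters in a window and are not shown binding sites.

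Libraries held 41631951 to 52761900 counts each, and all 42 members passed the filter on low counts. Levels are given as CPM, a gene's share of the library's counts, scaled by TMM, edgeR's normalization, and they are not divided by transcript length, so they are compared for 1 gene across libraries. The 4 deleted microRNA genes were listed at 0 counts in every library, WT included, and so do not check the genotype. Colonic epithelial markers such as Epcam and Krt8 were abundant in all libraries. Xist stood at 633 to 716 CPM in DSS DKO and 783 to 906 CPM in DSS WT, against 6.8 to 14.5 CPM in baseline DKO and 6.75 to 7.34 CPM in baseline WT. The Y-linked gene Ddx3y ran the other way, at 0.162 to 0.204 CPM in DSS DKO and 0.587 to 0.895 CPM in DSS WT, against 42.6 to 52.4 CPM in baseline DKO and 52 to 54.9 CPM in baseline WT. Every comparison of DSS with baseline therefore also compared libraries with a female pattern with libraries with a male pattern, and the 2 cannot be told apart, whereas each comparison of genotypes stayed within 1 pattern. The ribosomal RNA entry Rn18s-rs5 took 0.315% to 23% of counts in baseline DKO libraries and at most 1.59% in the others. The labels call the libraries biological replicates without saying that each was 1 mouse. Each p-value sets a group difference only against the spread between these libraries, pooled over the groups in 1 fit.

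After DSS, genes of DNA replication were lower in DKO than in WT cells. Of the 24 S-phase genes, 16 were lower in DSS DKO than in DSS WT cells and none was higher, with a median log2 fold change of -0.85. Of the 18 mitotic genes, 5 were lower and none was higher, with a median log2 fold change of -0.38. The median over all 19267 genes tested was 0.03, and 5.98% of them were called lower and 5.26% higher at an adjusted p under 0.05 (edgeR's quasi-likelihood test, Benjamini-Hochberg adjusted over all genes tested). In 27 of the 42 members, 20 S-phase and 7 mitotic, every DSS DKO library was below every DSS WT library, beside 17.9% of all genes.

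**Figure D1:**
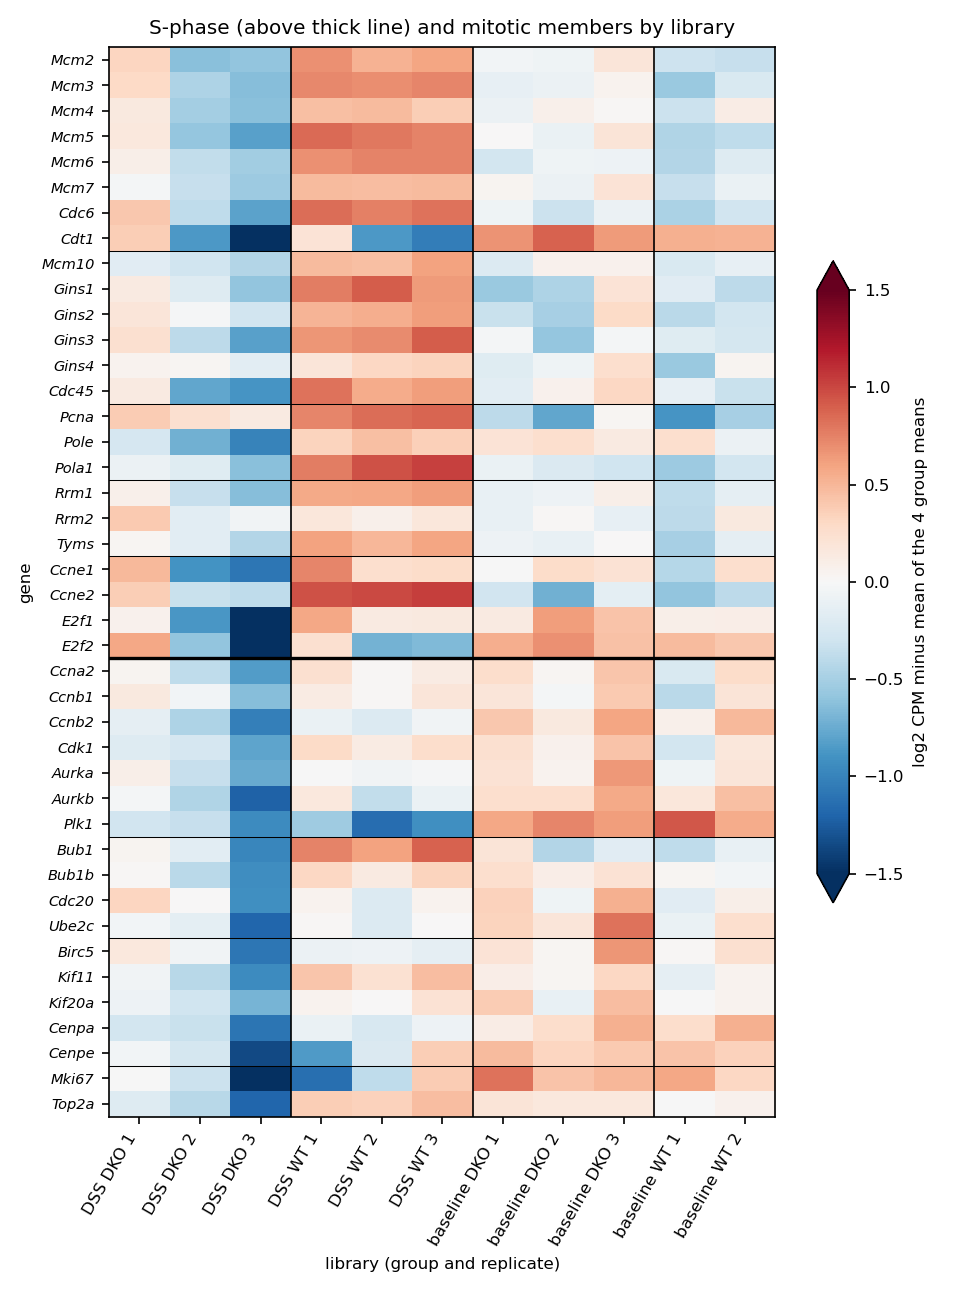
Each cell gives log2 CPM of 1 gene (rows, grouped by role, S-phase genes above the thick line) in 1 library (columns), minus the mean of that gene's 4 group means. The 3 DSS WT libraries are high across most S-phase genes, DSS DKO replicate 3 is low across nearly all rows, and DSS DKO replicate 1 has the highest class means of its group.

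Of the 8 licensing genes, 7 were lower in DSS DKO cells than in DSS WT cells. Mcm6, a subunit of the hexameric MCM helicase, was at 99.9, 72.3 and 65.4 CPM in DSS DKO, against 150.4, 157 and 157 CPM in DSS WT. Its baseline levels were 77.6, 89.4 and 89.2 CPM in DKO and 69.2 and 81.8 CPM in WT. The DSS WT libraries were thus the high ones and the DSS DKO libraries spanned the baseline range, with a log2 fold change between DSS DKO and DSS WT of -0.97 ± 0.15 (SE) and an adjusted p of 0.00256 by edgeR's test.

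Mcm5, another helicase subunit, was at 74.4, 44.7 and 37.98 CPM in DSS DKO and 120, 115 and 112 CPM in DSS WT. At baseline it was at 66.9, 62.3 and 76.1 CPM in DKO and 48.7 and 51.2 CPM in WT. Groups after DSS did not overlap, and the log2 fold change was -1.14 ± 0.20 (adjusted p = 0.00551, edgeR). Mcm7, whose introns hold the Mir25 and Mir93 genes, stood at 73.8, 59.04 and 51.5 CPM in DSS DKO, against 105, 104 and 104 CPM in DSS WT. Its baseline values were 77.5, 70.7 and 86.9 CPM in DKO and 58.9 and 70.3 CPM in WT. The 3 DSS WT values of Mcm7 lay close together and above every other library, and the log2 fold change between DSS DKO and DSS WT was -0.76 ± 0.14 (adjusted p = 0.00602, edgeR).

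The remaining MCM subunits were also lower in DSS DKO than in DSS WT. Log2 fold changes were -0.83 for Mcm2, -0.93 for Mcm3 and -0.72 for Mcm4, with edgeR adjusted p of 0.0305, 0.0151 and 0.0298. Cdc6, which loads the helicase with the origin recognition complex, averaged 11.6 ± 5.14 CPM in DSS DKO and 22.8 ± 0.684 CPM in DSS WT (SD, n = 3 each), a log2 fold change of -0.97 (edgeR adjusted p = 0.0267). Its loading partner Cdt1 did not follow. Cdt1 was at 13.99, 5.93 and 3.58 CPM in DSS DKO and 12.5, 5.95 and 5.28 CPM in DSS WT, against 17.4, 20.1 and 16.97 CPM in baseline DKO and 15.7 and 15.6 CPM in baseline WT. The 2 DSS groups overlapped widely and all their libraries lay below all baseline libraries, and no Cdt1 difference passed the test, with an edgeR adjusted p of 0.994 between genotypes after DSS.

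Among the 6 genes of origin firing, 4 were lower in DSS DKO cells. Mcm10, a scaffold needed to activate the helicase, was at 20.9, 19.2 and 17.4 CPM in DSS DKO, against 32.9, 32.1 and 35.9 CPM in DSS WT. Baseline libraries of Mcm10 stood at 20.4, 24.7 and 24.6 CPM in DKO and 20.02 and 21.6 CPM in WT. It had a narrow spread in each group, no overlap between the DSS groups, and a log2 fold change of -0.81 ± 0.13 (adjusted p = 0.00277, edgeR).

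Cdc45, a subunit of the active CMG helicase, was at 14.3, 7.62 and 7.05 CPM in DSS DKO and 23.1, 19.2 and 20.2 CPM in DSS WT. At baseline it was at 11.7, 13.7 and 16.3 CPM in DKO and 12 and 10.3 CPM in WT. DSS DKO replicate 1 lay in the baseline range while the other 2 DSS DKO libraries were the lowest of all 11, and the log2 fold change between DSS DKO and DSS WT was -1.11 ± 0.25 (adjusted p = 0.0153, edgeR). Gins1, of the GINS complex, was at 5.96, 4.72 and 3.56 CPM in DSS DKO, 9.23, 10.2 and 8.46 CPM in DSS WT, 3.65, 3.898 and 6.23 CPM in baseline DKO and 4.79 and 4.11 CPM in baseline WT. Only the DSS WT libraries stood apart, and the log2 fold change was -0.97 ± 0.25 (adjusted p = 0.0269, edgeR). Gins3 changed by -1.03 (adjusted p = 0.0269, edgeR). Gins2 and Gins4 did not pass, with log2 fold changes of -0.59 ± 0.20 and -0.30 ± 0.17, although in both every DSS DKO library was below every DSS WT library.

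The member with the lowest adjusted p was Pola1, the catalytic subunit of the polymerase that primes DNA synthesis. Pola1 was at 19.98, 18.8 and 13.7 CPM in DSS DKO, against 36.4, 41.3 and 43.5 CPM in DSS WT. The baseline libraries held 19.9, 18.3 and 17.3 CPM in DKO and 14.6 and 17.7 CPM in WT. DSS WT was above all other libraries with no overlap, and the log2 fold change between DSS DKO and DSS WT was -1.205 ± 0.16 (adjusted p = 0.00122, edgeR), a level 0.434 times that of WT.

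Pole, the catalytic subunit of the leading-strand polymerase, had another order of groups. It was at 15.04, 10.9 and 8.98 CPM in DSS DKO and 22.6, 24.6 and 22.9 CPM in DSS WT, and at 20.7, 21.5 and 19.8 CPM in baseline DKO and 21.4 and 16.8 CPM in baseline WT. Here the DSS DKO libraries were the ones that stood apart, below all others, with a log2 fold change against DSS WT of -1.004 ± 0.18 (adjusted p = 0.00551, edgeR). Pcna, the sliding clamp of the polymerases, was at 184, 167 and 155 CPM in DSS DKO and 233, 252 and 258 CPM in DSS WT, against 107, 81.9 and 143 CPM in baseline DKO and 76.4 and 99.4 CPM in baseline WT. Pcna had all DSS DKO libraries below DSS WT and above baseline, and its log2 fold change between DSS DKO and DSS WT, -0.56 ± 0.18, did not pass (adjusted p = 0.0634, edgeR).

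Of the 3 nucleotide supply genes, 2 were lower in DSS DKO than in DSS WT. Rrm1, the large subunit of ribonucleotide reductase, was at 88.7, 66.4 and 54.02 CPM in DSS DKO and 126, 126 and 131 CPM in DSS WT. It was at 78.1, 80.1 and 89.9 CPM in baseline DKO and 64.6 and 77.01 CPM in baseline WT. DSS WT was above every other library, and the log2 fold change between DSS DKO and DSS WT was -0.87 ± 0.16 (adjusted p = 0.00594, edgeR).

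Rrm2, the small subunit of the same enzyme, gave another picture, with 30.3, 20.7 and 22.3 CPM in DSS DKO, 26.1, 24.4 and 25.9 CPM in DSS WT, 21.4, 23.3 and 21.3 CPM in baseline DKO and 17.6 and 25.7 CPM in baseline WT. The DSS groups overlapped, and the log2 fold change between DSS DKO and DSS WT was -0.06 ± 0.17 (adjusted p = 0.856, edgeR). Tyms, thymidylate synthase, was at 25.8, 22.6 and 18.7 CPM in DSS DKO and 38.5, 35.7 and 38.2 CPM in DSS WT, against 23.9, 23.3 and 25.4 CPM in baseline DKO and 17.9 and 22.97 CPM in baseline WT. Its DSS WT libraries were again the high ones, with a log2 fold change of -0.74 ± 0.14 (adjusted p = 0.00772, edgeR).

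Of the 4 genes that control entry into S phase, Ccne2 alone passed the test. Ccne2, 1 of the E-type cyclins that activate Cdk2, was at 12.01, 7.37 and 7.12 CPM in DSS DKO, against 18.03, 18.4 and 19.03 CPM in DSS WT. At baseline it was at 7.59, 5.59 and 8.41 CPM in DKO and 6.16 and 7.04 CPM in WT. The log2 fold change between DSS DKO and DSS WT was -1.06 ± 0.22 (adjusted p = 0.0108, edgeR), with no overlap.

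Ccne1, the other E-type cyclin, was at 7.94, 3.04 and 2.65 CPM in DSS DKO, 9.48, 6.79 and 6.88 CPM in DSS WT, 5.64, 6.85 and 6.62 CPM in baseline DKO and 4.22 and 6.76 CPM in baseline WT. E2f1, an activating E2F factor, was at 5.995, 3.12 and 1.97 CPM in DSS DKO, 8.58, 6.32 and 6.37 CPM in DSS WT, 6.32, 8.89 and 7.73 CPM in baseline DKO and 6.12 and 6.15 CPM in baseline WT. In both genes DSS DKO replicate 1 was above the other 2 DSS DKO libraries, and neither passed between DSS DKO and DSS WT (log2 fold changes -0.76 ± 0.37 and -0.93 ± 0.33, edgeR adjusted p = 0.216 and 0.0887). E2f2, a related activator, spanned 40.4, 17.97 and 7.51 CPM in DSS DKO and 32.01, 16.5 and 17.1 CPM in DSS WT, so that its spread within each DSS group was far larger than its log2 fold change of 0.01.

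**Figure D2:**
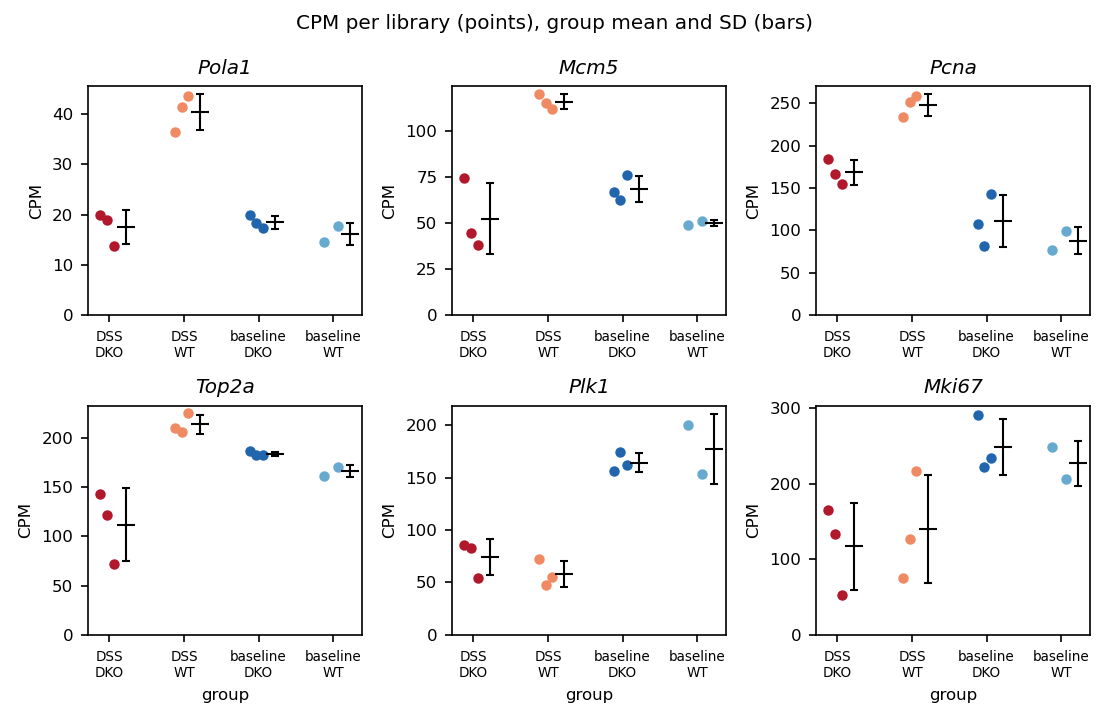
CPM of 6 members per library (points) with group mean and SD (black bars), in DSS DKO, DSS WT, baseline DKO and baseline WT. Pola1, Mcm5 and Pcna are highest in the 3 DSS WT libraries, Top2a is lowest in DSS DKO, Plk1 is low in both DSS groups, and the 3 DSS WT values of Mki67 spread between 75.7 and 216 CPM.

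The 5 mitotic genes called lay in several roles. Of 7 kinases and cyclins, Cdk1 alone was lower in DSS DKO than in DSS WT cells. Cdk1, the kinase that drives entry into mitosis, was at 26.7, 25.5 and 17.6 CPM in DSS DKO, against 37.2, 33.3 and 36.6 CPM in DSS WT. Its baseline values were 35.98, 31.98 and 41.1 CPM in DKO and 25.2 and 34.2 CPM in WT. The DSS groups did not overlap (log2 fold change -0.62 ± 0.17, adjusted p = 0.0413, edgeR), and baseline DKO lay close to DSS WT. The call was lost without any 1 of DSS DKO replicates 2 and 3, the 3 DSS WT libraries and baseline DKO replicates 1 and 2 (edgeR adjusted p up to 0.135).

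Ccna2, the A-type cyclin of S phase and early mitosis, was at 53.2, 39.6 and 29 CPM in DSS DKO, 61.2, 52.2 and 56.3 CPM in DSS WT, 62.2, 52.98 and 69.2 CPM in baseline DKO and 44.3 and 62.7 CPM in baseline WT. Ccnb2, a B-type cyclin, was at 29.4, 23.5 and 15.8 CPM in DSS DKO, 30.1, 28.1 and 31.2 CPM in DSS WT, 42.6, 35.7 and 48.6 CPM in baseline DKO and 34.03 and 45.3 CPM in baseline WT. The DSS groups overlapped in both, with log2 fold changes between DSS DKO and DSS WT of -0.48 ± 0.20 and -0.38 ± 0.20 and edgeR adjusted p of 0.156 and 0.262. Ccnb1, Aurka and Aurkb had log2 fold changes of -0.25, -0.27 and -0.39, and Plk1, the Polo-like kinase, of 0.35 ± 0.19, none past the test.

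Among 4 genes of the spindle checkpoint and the anaphase-promoting complex (APC/C), 2 were lower in DSS DKO than in DSS WT. Bub1, a checkpoint kinase, was at 14.7, 12.7 and 7.23 CPM in DSS DKO and 23.9, 21.6 and 26.4 CPM in DSS WT, against 16.4, 10.5 and 12.6 CPM in baseline DKO and 10.95 and 13.2 CPM in baseline WT. As for Mcm6, DSS WT stood above every other library (log2 fold change between DSS DKO and DSS WT -1.05 ± 0.24, adjusted p = 0.0179, edgeR). Bub1b, a subunit of the mitotic checkpoint complex, was at 41.9, 31.2 and 21.6 CPM in DSS DKO, 51.1, 45.3 and 51.9 CPM in DSS WT, 49.2, 44.2 and 48.02 CPM in baseline DKO and 42.1 and 40.2 CPM in baseline WT, with a log2 fold change after DSS of -0.65 ± 0.19 (adjusted p = 0.045, edgeR). The Bub1b call held without DSS DKO replicate 1 and was lost without any other 1 library (edgeR adjusted p up to 0.143). Ube2c, the ubiquitin-conjugating enzyme of the APC/C, was at 24.5, 22.8 and 11.1 CPM in DSS DKO, 25.6, 21.9 and 25.3 CPM in DSS WT, 31.9, 28.6 and 44.6 CPM in baseline DKO and 23.7 and 30.2 CPM in baseline WT. The DSS groups overlapped in Ube2c, and neither it nor Cdc20, the APC/C activator, passed (log2 fold changes -0.32 and -0.08).

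Kif11, the motor that separates spindle poles, was the 1 gene called of 5 spindle and centromere genes. It was at 52.6, 41.1 and 28.4 CPM in DSS DKO and 73, 64.1 and 75.8 CPM in DSS WT, against 58.9, 55.7 and 68.1 CPM in baseline DKO and 49.8 and 56.7 CPM in baseline WT. The DSS groups did not overlap (log2 fold change -0.80 ± 0.19, adjusted p = 0.0181, edgeR). Kif20a, a motor of cytokinesis, was at 22.9, 19.6 and 14.9 CPM in DSS DKO, 25.04, 24.2 and 28.04 CPM in DSS WT, 31.5, 22.3 and 33.3 CPM in baseline DKO and 24.1 and 24.95 CPM in baseline WT. Cenpa, the histone variant that marks centromeres, was at 21.2, 20.5 and 12.02 CPM in DSS DKO, 24.1, 21.9 and 24.5 CPM in DSS WT, 27.8, 31.04 and 37.2 CPM in baseline DKO and 31 and 37.3 CPM in baseline WT. Both had DSS DKO below DSS WT without overlap and did not pass (log2 fold changes -0.43 ± 0.18 and -0.39 ± 0.20), nor did Birc5 or Cenpe (-0.13 and -0.30).

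Top2a, the topoisomerase that untangles sister chromatids, and Mki67, the coat protein of mitotic chromosomes widely used as a proliferation marker, differed in how steady they were. Top2a was at 143, 122 and 71.6 CPM in DSS DKO and 210.2, 207 and 225 CPM in DSS WT, against 187, 182 and 182 CPM in baseline DKO and 162 and 171 CPM in baseline WT. DSS DKO was below every other library, with a log2 fold change against DSS WT of -0.93 ± 0.19 (adjusted p = 0.0108, edgeR). Mki67 was at 165, 133 and 53.2 CPM in DSS DKO, 75.7, 127 and 216 CPM in DSS WT, 291, 222 and 234 CPM in baseline DKO and 248 and 206 CPM in baseline WT. The DSS WT libraries alone ran between 75.7 and 216 CPM, the DSS groups overlapped, and the log2 fold change of -0.25 ± 0.43 did not pass (adjusted p = 0.755, edgeR).

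The count of 21 members lower in DSS DKO was 9 without DSS DKO replicate 2 and 11 without DSS WT replicate 3, with no member higher in either case. Fitted on the 6 DSS libraries alone it was 13, and 1 member passed a test for a change beyond 1.5-fold. Mcm2, Mcm4 and Gins1 lost their calls without DSS DKO replicate 2 or 3 or any 1 DSS WT library (edgeR adjusted p up to 0.134). Cdc6 lost its call without DSS DKO replicate 2 or any 1 DSS WT library. That of Gins3 was lost without replicate 2 or 3 of either DSS group. Mcm3, Bub1 and Kif11 lost theirs without DSS DKO replicate 2 or DSS WT replicate 3, and Cdc45 and Ccne2 without DSS DKO replicate 2.

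In wild-type cells, replication genes were higher after DSS than at baseline. Of 24 S-phase genes, 16 rose in DSS WT over baseline WT and none fell, with a median log2 fold change of 0.89. Of 18 mitotic genes, Bub1 rose and Plk1 fell, with a median of -0.04. The Bub1 call was lost with a correction for GC content and length and without DSS WT replicate 3 or either baseline WT library (edgeR adjusted p up to 0.14). Over all genes, 16.9% were called higher and 16.5% lower (edgeR's quasi-likelihood test, Benjamini-Hochberg adjusted), and the median was -0.01. DSS WT lay above baseline WT without overlap in 25 members, 21 of them S-phase, beside 31.9% of all genes. This comparison shares its DSS WT libraries with the genotype comparison after DSS.

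The lowest adjusted p among the members that rose were those of Pola1 (log2 fold change 1.33 ± 0.18, adjusted p = 0.00053, edgeR) and Pcna (1.495 ± 0.21, adjusted p = 0.00056). Ccne2 rose by 1.49 ± 0.26 (adjusted p = 0.00164, edgeR) and Mcm6 by 1.04 ± 0.17 (adjusted p = 0.00127, edgeR). The 8 S-phase genes that did not pass were Mcm4 (0.52), Cdt1 (-0.99), Gins4 (0.50), Pole (0.29), Rrm2 (0.24), Ccne1 (0.49), E2f1 (0.21) and E2f2 (-0.75). Bub1 rose by 0.99 ± 0.28 (adjusted p = 0.0178, edgeR). Plk1 went the other way, averaging 58.2 ± 12.7 CPM in DSS WT (n = 3) and 177 ± 33 CPM in baseline WT (SD, n = 2), a log2 fold change of -1.61 ± 0.21 (adjusted p = 0.000422, edgeR). Without baseline WT replicate 1, which leaves 1 baseline WT library assumed to vary like the other groups, 8 of the 18 calls were left, those of Ccne2, Mcm5, Mcm6, Mcm10, Pcna, Pola1, Tyms and Plk1. Beyond 1.5-fold, 6 members passed.

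In double-knockout cells the calls lay mostly among mitotic genes, which were lower after DSS than at baseline. Among the 18 mitotic genes, 11 fell in DSS DKO against baseline DKO and none rose, with a median log2 fold change of -0.63. Among the 24 S-phase genes, Pcna rose, Pole and E2f1 fell and the other 21 did not pass, with a median of -0.20. The calls of Pcna and E2f1, and that of the mitotic gene Ube2c, were lost with a correction for GC content and length. Of all genes, 12.6% were called higher and 11% lower (edgeR's quasi-likelihood test, Benjamini-Hochberg adjusted), with a median of 0.01.

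The mitotic genes that fell were Top2a, Ccnb2, Cdk1, Aurka, Aurkb, Plk1, Bub1b, Kif11, Kif20a, Cenpa and Ube2c. Plk1 had the lowest adjusted p, at 74.3 ± 17.2 CPM in DSS DKO and 164 ± 9.24 CPM in baseline DKO (SD, n = 3 each), a log2 fold change of -1.15 ± 0.19 (adjusted p = 0.0019, edgeR). Ccnb2 fell with a log2 fold change of -0.88 ± 0.20 (adjusted p = 0.00976, edgeR) and Cenpa with -0.84 ± 0.20 (adjusted p = 0.011, edgeR). Among S-phase genes, the log2 fold change was 0.60 ± 0.18 for Pcna (adjusted p = 0.0287, edgeR), -0.83 ± 0.18 for Pole (adjusted p = 0.00689, edgeR) and -1.04 ± 0.33 for E2f1 (adjusted p = 0.0379, edgeR). Licensing genes did not pass in either direction, Mcm6 at -0.11 ± 0.15 and Mcm5 at -0.39 ± 0.20.

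This count depended on single libraries. It was 14 with all libraries and 27, all lower, without DSS DKO replicate 1, the highest of its group, and between 4 and 6 without any 1 of DSS DKO replicates 2 and 3 and baseline DKO replicates 1, 2 and 3. It was 9 without DSS WT replicate 3 or either baseline WT library and 5 when fitted on the 6 DKO libraries alone. Leaving out together the 2 baseline DKO libraries high in the ribosomal RNA entry Rn18s-rs5, which took up to 23% of counts, left 1 call.

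**Figure D3:**
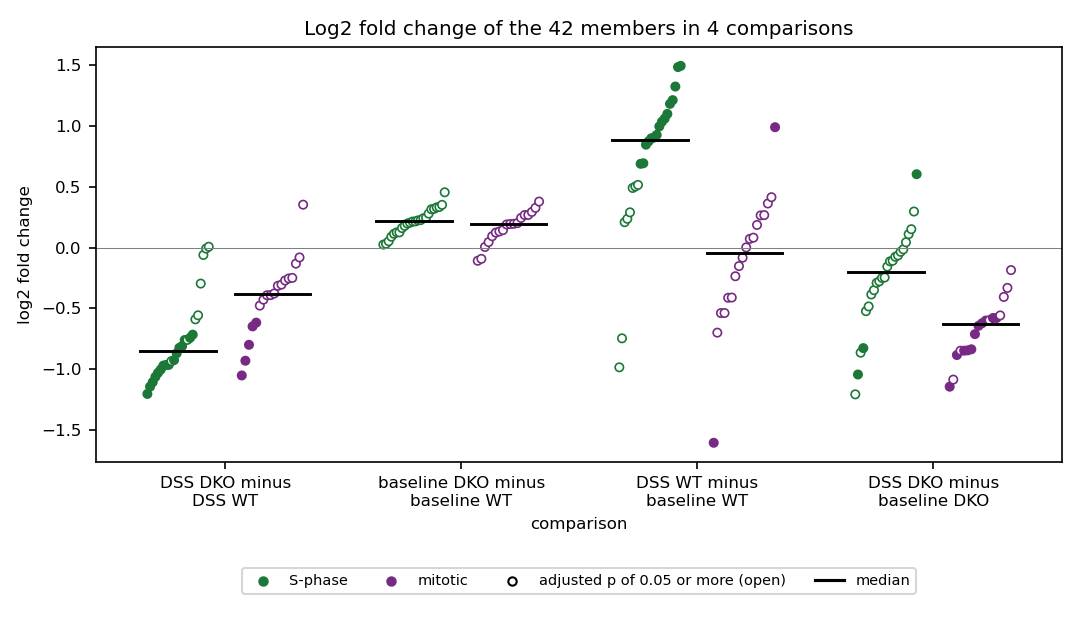
Log2 fold changes of the 24 S-phase (green) and 18 mitotic (purple) members in 4 comparisons, with black lines at the class medians and filled points where the adjusted p is under 0.05. S-phase medians are -0.85 for DSS DKO minus DSS WT and 0.89 for DSS WT minus baseline WT, and the mitotic median is lowest, at -0.63, for DSS DKO minus baseline DKO.

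At baseline, no member differed between DKO and WT by edgeR's quasi-likelihood test. The count was also 0 at an unadjusted p under 0.05, by DESeq2 and by limma. Log2 fold changes of the 42 members ranged from -0.11 to 0.45 with a median of 0.20, against a median of 0.01 for all genes. The S-phase median was 0.21 and the mitotic median 0.19. Few genes of any kind were called, 0.0104% higher and 0.0156% lower. The highest value was that of Mcm5, at 68.5 ± 6.98 CPM in baseline DKO (n = 3) and 49.95 ± 1.72 CPM in baseline WT (SD, n = 2), a log2 fold change of 0.45 ± 0.23. With 2 baseline WT libraries, a test that missed its threshold does not show that the genotypes were alike.

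The interaction of genotype and DSS asks whether the difference between DSS and baseline libraries was the same in DKO and WT cells. The DSS libraries had a female and the baseline libraries a male pattern. An interaction of genotype and sex therefore cannot be told apart from it. The interaction passed for 7 members, all S-phase and all negative, meaning a lower DSS minus baseline difference in DKO. They were Pola1 (-1.401 ± 0.24, adjusted p = 0.017, edgeR), Mcm5 (-1.599 ± 0.30, 0.0281), Mcm6 (-1.14 ± 0.22, 0.0297), Mcm10 (-0.97 ± 0.19, 0.0297), Mcm7 (-1.04 ± 0.21, 0.0317), Rrm1 (-1.09 ± 0.24, 0.0434) and Tyms (-0.99 ± 0.21, 0.0439). In all genes, 0.794% had a negative and 0.773% a positive interaction. At an unadjusted p under 0.05, 26 of the 42 members were negative and none positive, beside 9.80% and 9.07% of all genes. None of the 18 mitotic genes passed edgeR's test (7 at an unadjusted p under 0.05, and 4 by DESeq2), and their median was -0.53, beside -1.05 for the S-phase genes and 0.02 for all genes. The count fell to 0 when any 1 of DSS DKO replicate 2, DSS WT replicate 2, DSS WT replicate 3 and the 2 baseline WT libraries was left out. It was 22 without DSS DKO replicate 1, and DESeq2 called 18.

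Across libraries, the 2 classes were also summarised by the mean log2 CPM of their members, each relative to the mean of its 4 group means. For S-phase genes this mean was 0.18, -0.41 and -0.70 in DSS DKO and 0.58, 0.46 and 0.48 in DSS WT, against -0.06, -0.05 and 0.13 in baseline DKO and -0.29 and -0.12 in baseline WT. For mitotic genes it was -0.03, -0.28 and -1.01 in DSS DKO and -0.0028, -0.09 and 0.14 in DSS WT, against 0.31, 0.12 and 0.45 in baseline DKO and 0.04 and 0.23 in baseline WT. DSS WT was the highest and the tightest group for S-phase genes, while for mitotic genes DSS WT overlapped baseline WT and DSS DKO reached the lowest values.

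The difference of the 2 class means, S-phase minus mitotic, was 0.13 ± 0.23 in DSS DKO (SD, n = 3), 0.50 ± 0.13 in DSS WT (n = 3), -0.29 ± 0.10 in baseline DKO (n = 3) and -0.34 ± 0.01 in baseline WT (n = 2). All DSS libraries were above all baseline libraries in it. DSS DKO and DSS WT did not overlap, at -0.13 to 0.31 and 0.35 to 0.59. The spread in DSS DKO came with a shared ordering, since replicate 1 was the highest and replicate 3 the lowest of that group in both classes. No p is given for these scores, because the members were chosen with results of these data known.

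**Figure D4:**
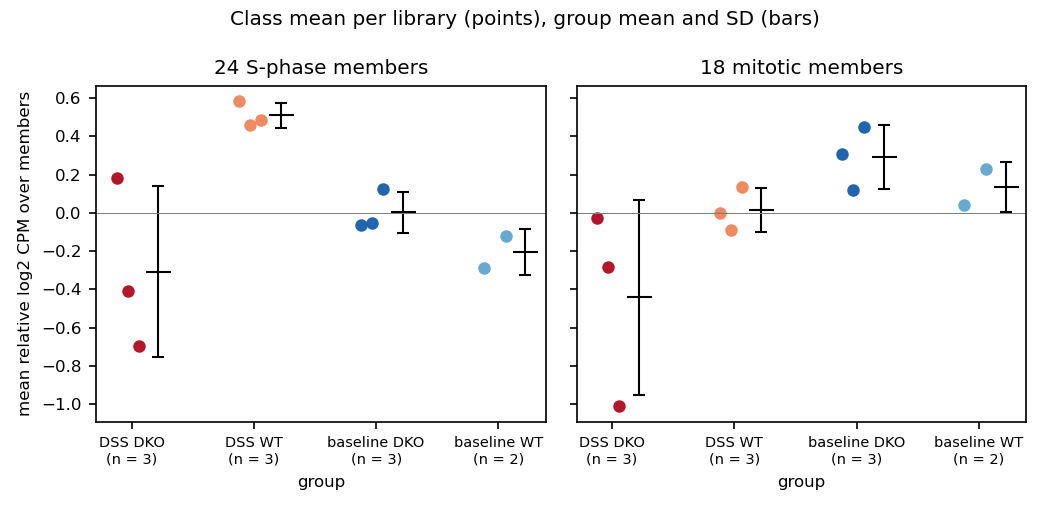
Mean relative log2 CPM over the 24 S-phase members (left) and the 18 mitotic members (right) in each library (points), with group mean and SD (black bars). DSS WT stands at 0.46 to 0.58 for S-phase genes, above all other libraries, and DSS DKO reaches down to -1.01 for mitotic genes.

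Other genes of the same pathways, taken from lists of textbook members, were compared between DSS DKO and DSS WT in the same fit. These lists were chosen with earlier results of these data known. Over all genes, 5.98% were called lower and 5.26% higher in this comparison. Genes of the replication fork and chromatin assembly were lower in DSS DKO in 17 of 24, those of origin recognition and firing in 6 of 18. None was higher in either list. Topbp1, an activator of origin firing, averaged 61.4 ± 10.5 CPM in DSS DKO and 106 ± 0.342 CPM in DSS WT (SD, n = 3 each), a log2 fold change of -0.79 (edgeR adjusted p = 0.00234). Cdc7, the kinase that triggers firing, averaged 7.65 ± 2.81 CPM in DSS DKO and 17.98 ± 0.973 CPM in DSS WT (SD, n = 3 each; -1.23, edgeR adjusted p = 0.00623). At the fork, Prim1, the primase, changed by -0.97 (adjusted p = 0.00957, edgeR) and Chaf1b, a chromatin assembly factor, by -0.72 (adjusted p = 0.01, edgeR). Both of these calls were lost without DSS DKO replicate 2 (edgeR adjusted p = 0.0548 and 0.0553).

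Of 10 genes of deoxynucleotide supply, 2 were lower in DSS DKO than in DSS WT, among them Dck, which phosphorylates deoxycytidine (-0.69, adjusted p = 0.0173, edgeR). Of 9 cyclin D and CDK genes of G1 progression, Skp2, which targets p27 for degradation, was lower (-0.77, adjusted p = 0.0151, edgeR). Of 17 pocket proteins, E2F and DREAM factors, 4 were lower, with the lowest adjusted p for Lin9 (-0.74, adjusted p = 0.0066, edgeR), a core MuvB subunit, and Rbl1 (-0.42, adjusted p = 0.019, edgeR), the p107 pocket protein. CDK inhibitors were the list in which a gene was higher in DSS DKO than in DSS WT. Cdkn1c, which encodes p57, was at 4.57, 4.21 and 3.27 CPM in DSS DKO and 2.47, 0.951 and 1.25 CPM in DSS WT, without overlap (log2 fold change 1.37 ± 0.34, adjusted p = 0.0226, edgeR). The other 5 tested of the 7 listed did not pass, and Cdkn2a was below the count filter. The calls of Dck, Skp2, Rbl1 and Cdkn1c were lost without any 1 of DSS DKO replicate 2, DSS WT replicate 2 and DSS WT replicate 3 (edgeR adjusted p up to 0.0995).

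On the mitotic side, 6 of 18 kinetochore and checkpoint genes were lower in DSS DKO than in DSS WT, among them Mad2l1 (-0.84, adjusted p = 0.0186, edgeR) and Cenph (-0.89, adjusted p = 0.0253, edgeR). Of 20 spindle motor and cytokinesis genes, 2 were lower, Kif15 (-0.72) and Aspm (-0.86), and of 18 condensin, separase and mitotic exit genes, 3, among them Ncapg2 (-0.63) and Smc2 (-0.81). None was higher in these 3 lists, beside 5.98% of all genes called lower and 5.26% higher. Without any 1 of DSS DKO replicate 2, DSS WT replicate 2 and DSS WT replicate 3, the calls of Mad2l1, Cenph, Aspm, Ncapg2 and Smc2 were lost. That of Kif15 was lost without DSS WT replicate 2 or 3. Cenph also lost its call without DSS DKO replicate 3 or DSS WT replicate 1, and with a correction for GC content and length.

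Differences between DSS and baseline in these lists were also counted in each genotype. In DSS WT against baseline WT, 15 of 24 fork genes and 7 of 18 origin genes rose and none fell, and 4 of 18 kinetochore and checkpoint genes rose with none falling. Of 20 spindle motor and cytokinesis genes none rose and 2 fell, and of 18 condensin and mitotic exit genes 3 rose and 5 fell. Over all genes, 16.9% were called higher and 16.5% lower in DSS WT than in baseline WT. In DSS DKO against baseline DKO, no fork gene rose and 2 fell, 3 origin genes rose and 1 fell, and 1 kinetochore and checkpoint gene rose and 2 fell. In the same comparison, 14 of 20 spindle motor and cytokinesis genes and 10 of 18 condensin and mitotic exit genes fell, with none rising. Beside these counts, 12.6% of all genes were called higher and 11% lower in DSS DKO than in baseline DKO. The difference between genotypes was tested gene by gene through the interaction, which passed edgeR's test for 1 origin gene. It passed for none of the fork, kinetochore, spindle motor or mitotic exit genes. At an unadjusted p under 0.05, it was negative for 17 of 24, 8 of 18, 8 of 20 and 5 of 18 of them, beside 9.80% of all genes.

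Markers of other cells moved with these groups. The summed CPM of 12 T cell and intraepithelial lymphocyte markers was 39.3 to 76.3 in DSS DKO and 142 to 155 in DSS WT, against 33.7 to 45.6 in baseline DKO and 29.9 to 53.7 in baseline WT. Of the 12, 10 were lower in DSS DKO than in DSS WT and 9 higher in DSS WT than in baseline WT, so that this list was high in the same 3 libraries as the S-phase genes. Cd8a was at 10.1, 3.71 and 6.17 CPM in DSS DKO and 17.8, 16.9 and 15.8 CPM in DSS WT, and Cd3e at 1.79, 1.34 and 0.93 CPM in DSS DKO and 2.65, 2.4 and 2.72 CPM in DSS WT. The part of lymphocytes in the S-phase result was not tested.

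Crypt stem and transit-amplifying markers summed to 876 to 1074 CPM in DSS DKO and 1043 to 1125 CPM in DSS WT, against 912 to 969 CPM in baseline DKO and 1002 to 1032 CPM in baseline WT, and 4 of 12 were lower in DSS DKO than in DSS WT, with 8 not called. The gene Slc12a2 made up most of this sum, at 692, 663 and 675 CPM in DSS DKO and 622, 653 and 704 CPM in DSS WT, whereas the median log2 fold change of the list was -0.87. Cdca7, a transit-amplifying marker, was at 62.3, 32.6 and 36.8 CPM in DSS DKO and 83.1, 92.7 and 89.6 CPM in DSS WT, and Lgr5, a stem cell marker, at 7.22, 3.65 and 2.72 CPM in DSS DKO and 13.3, 16 and 14.3 CPM in DSS WT, each highest in DSS DKO replicate 1 within its group. Sox4, at 43.4, 24.4 and 11.8 CPM in DSS DKO and 26.7, 14.6 and 13.2 CPM in DSS WT, and Ephb2, at 98, 59.6 and 37.9 CPM in DSS DKO and 84.4, 38.2 and 48.4 CPM in DSS WT, overlapped between the groups, as did Slc12a2. Neutrophil markers summed to 162 to 225 CPM in DSS DKO and 53.8 to 57.9 CPM in DSS WT, against 31 to 39.9 CPM in baseline DKO and 32.5 to 35.8 CPM in baseline WT. Of these markers, 5 of 8 were higher in DSS DKO than in DSS WT and 8 of 8 higher in DSS DKO than in baseline DKO. Ly6g made up most of the DSS DKO sum, at 113, 144 and 135 CPM, against 39, 26.8 and 25.4 CPM in DSS WT. Csf3r, Cxcr2 and Trem1 overlapped between DSS DKO and DSS WT. Macrophage and dendritic cell markers summed to 75.9 to 110 CPM in DSS DKO and 113 to 133 CPM in DSS WT, with 1 of 8 called, lower. Cd14 made up most of this sum, at 76.5, 75 and 56.9 CPM in DSS DKO and 88.8, 103 and 101 CPM in DSS WT, whereas the median log2 fold change of the list was 0.16. Mature colonocyte markers were called higher in 3 of 10 and lower in 1, and fibroblast markers, at 225 to 380 CPM in DSS DKO and 291 to 343 CPM in DSS WT, higher in 3 of 8 and lower in 1. B and plasma cell markers summed to 5.61 to 8.99 CPM in DSS DKO and 6 to 19.4 CPM in DSS WT, and endothelial ones to 3.61 to 4.85 CPM in DSS DKO and 4.94 to 5.76 CPM in DSS WT. No marker of any list was at 0 in all libraries. None of the 10 epithelial markers passed edgeR's test between DSS DKO and DSS WT (1 at an unadjusted p under 0.05). The part of these cells in the members' results was not tested.

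Libraries also differed in how their counts followed the base composition of transcripts. Across 18660 genes, the rank correlation of a library's log2 ratio to the gene mean with GC content, given as a description over genes that are not independent, was 0.132, -0.135 and -0.276 in DSS DKO and -0.151, -0.447 and -0.443 in DSS WT, against 0.283, 0.35 and 0.413 in baseline DKO and 0.304 and 0.222 in baseline WT. S-phase members had a median GC content of 49.2% and mitotic members 48.1%, a difference smaller than the range within each class. Among members with wide spread in the DSS groups, GC content was 58.3% for E2f1, 57.8% for Cdt1, 56.6% for E2f2, 46.6% for Mki67 and 42.9% for Cenpe. E2f1, Cdt1 and E2f2 had the highest GC content of all members and did not pass between DSS WT and baseline WT. Plk1, called lower there, had 56.0%. The other S-phase genes not called there had 45.5% (Mcm4) to 52.7% (Ccne1). The mitotic genes called between DSS DKO and DSS WT had 41.0% (Bub1), 42.2% (Kif11), 43.4% (Top2a), 47.8% (Cdk1) and 50.4% (Bub1b). With a GC and length correction, chosen after seeing the data, 23 members were called between DSS DKO and DSS WT, 18 between DSS WT and baseline WT, 13 between DSS DKO and baseline DKO and 11 in the interaction. It ended the calls of Bub1 and Gins1 between DSS WT and baseline WT (edgeR adjusted p = 0.0589 to 0.0658) and those of Pcna, E2f1 and Ube2c between DSS DKO and baseline DKO (edgeR adjusted p = 0.0641 to 0.105).

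Because the strand setting of the counting is not given, reads of overlapping genes on opposite strands could not be told apart. Exons of another gene cover over 10% of the exon bases of Gins2, Ccne2, Ccna2, Kif20a and Ube2c, of which Ccne2 is among the 21 called. Gins2 and Ccne2 are also among the genes called higher in DSS WT than in baseline WT, and Kif20a and Ube2c among those called lower in DSS DKO than in baseline DKO. Processed copies of Pcna, Tyms, Ccnb1 and Ccnb2 held at most 94 counts in any library.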

How the data were processed

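The deposited table holds unnormalized counts for each gene, 1 column for each of 11 libraries. Per the labels' protocols, polyadenylated RNA was selected with oligo(dT) and made into libraries with the NEBNext Ultra II kit. Per the submitters' processing notes, STAR and mm10 were used. Not given in the sources used here are the read counter, the annotation and the strand setting. Counts were analysed with edgeR 4.0.16 in R 4.3.3: filterByExpr at a minimum count of 10 left 19267 genes, TMM scaled the libraries, and all libraries entered 1 robust quasi-likelihood fit of the 4 group means (common biological coefficient of variation 0.234). Tests were two-sided, with Benjamini-Hochberg adjustment over all genes tested. Standard errors are log2 fold changes over the square root of F. DESeq2 1.42.0 and limma 3.58.1 were alternatives, and the code was tested on simulated counts. Replicates differed beyond sampling noise (chi-square per degree of freedom 15.9 to 897). Totals were 41631951 to 52761900 counts, and the lowest count of any member in any library was 87. Counting error was not compared with the spread between libraries gene by gene. Values in every library are given, in each role, for up to 3 members with the lowest adjusted p between DSS DKO and DSS WT. Of each pathway list, up to 2 called genes are named. The members, lists and motifs were chosen with earlier results of these data known.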

Additional observations from a re-analysis of the deposited data

Results flagged for a closer look

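For 7 S-phase members the difference between DSS DKO and baseline DKO departed from that between DSS WT and baseline WT, by the interaction term of edgeR's quasi-likelihood test (Benjamini-Hochberg adjusted). The interaction, DKO difference minus WT difference in log2 units, was -1.60 for Mcm5 (adjusted p = 0.0281), -1.40 for Pola1 (adjusted p = 0.017) and -1.14 for Mcm6 (adjusted p = 0.0297). It was -1.09 for Rrm1 (adjusted p = 0.0434), -1.04 for Mcm7 (adjusted p = 0.0317), -0.99 for Tyms (adjusted p = 0.0439) and -0.97 for Mcm10 (adjusted p = 0.0297). In each of the 7, the DSS minus baseline difference of DKO was negative, between -0.39 (Mcm5) and -0.08 (Pola1) on the log2 scale. That of WT was positive, between 0.69 (Mcm7) and 1.33 (Pola1). None of the 7 DKO differences passed the test on its own, and all 7 WT differences did. Since the DSS libraries had a female and the baseline libraries a male pattern, DSS and sex cannot be told apart in these values.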

How the results depend on the processing

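With replicate number as a replicate block, the counts were 20 (21 without it) for DSS DKO against DSS WT, 0 at baseline, 18 (18 without it) for DSS WT against baseline WT, 13 (14 without it) for DSS DKO against baseline DKO and 6 (7 without it) for the interaction. It ended the calls of Cdk1 in the first comparison (edgeR adjusted p = 0.0516), Ube2c and Aurka in DSS DKO against baseline DKO (0.0567 to 0.0592) and Tyms and Rrm1 in the interaction (0.0551 to 0.0581). Same-numbered libraries of different groups correlated at -0.071 to 0.302 in their deviations from group means, with 4 of 15 pairs over 0.1. Between DSS DKO and DSS WT, same-numbered libraries correlated at 0.302, 0.019 and 0.201 and differently numbered ones at -0.303 to 0.157. The numbers were not taken to pair the samples, and whether they do was left undecided. Fitted on the compared groups alone, the counts were 13 for DSS DKO against DSS WT and 5 for DSS DKO against baseline DKO. Beyond 1.5-fold they were 1 for DSS DKO against DSS WT, 6 for DSS WT against baseline WT, 1 for DSS DKO against baseline DKO and 0 for the interaction. Leaving out the 2 baseline DKO libraries high in Rn18s-rs5 gave 1 for DSS DKO against baseline DKO and 1 for the interaction. The interaction count was 11 with upper-quartile factors, 21 without a filter, 18 by DESeq2 and 11 with GC and length offsets, chosen after seeing the data. Leaving out 1 library at a time gave 9 to 24, 0 to 0, 8 to 22, 4 to 27 and 0 to 22 in the order of the first sentence, and the cause was not tested. In the 20 settings other than the fit on compared groups, the 1.5-fold minimum and the 2 libraries left out together, Mcm5, Mcm6, Mcm7, Mcm10, Pola1, Pole, Rrm1, Tyms and Top2a kept their call between DSS DKO and DSS WT.

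The S-phase minus mitotic median log2 fold change kept its sign between DSS DKO and DSS WT (-0.46 with all libraries, 1 library left out -0.58 to -0.38). For DSS WT against baseline WT it ran from 0.86 to 0.96, for DSS DKO against baseline DKO from 0.41 to 0.56 and for the interaction from -0.58 to -0.47, while at baseline it ran from -0.03 to 0.07.

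Members near 0 between DSS DKO and DSS WT changed sign, none past the threshold. E2f2 was -0.02957 with upper-quartile factors, -0.01229 without a filter, -2.109e-05 by DESeq2, -0.2427 by limma, -0.1465 with the block, -0.0003459 without Rn18s-rs5 and -0.318 with GC and length offsets. With 1 library left out, E2f2 ranged from -0.7789 to 0.4174, Cdt1 from -0.7304 to 0.4967, Rrm2 from -0.2463 to 0.04614, Cdc20 from -0.3563 to 0.201, Mki67 from -0.5815 to 0.2129, Birc5 from -0.3743 to 0.159 and Cenpe from -0.5566 to 0.05129. With GC and length offsets Rrm2 was 0.01669.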
